A study of Bos taurus with 10 samples.

Results

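The 10 genes described here are SGK1, PER1, DUSP1, IER3, IER2, ATF3, FOS, JUN, EGR1 and KLF6, classical immediate early genes together with SGK1 and PER1, which answer to many of the same signals. They were taken by symbol from a table of 28700 genes, and each symbol stood on 1 line of it. The group was selected on measured log2 differences between H1FOO knockdown and control bovine embryos, in which SGK1 and IER3 had stood out at the 8/16-cell stage and SGK1 and PER1 at the morula stage. For that reason the differences between knockdown and control are given for these genes as descriptions, with the counts of calls printed once and nothing read from them, while the difference between the stages, averaged over both treatments, does not use them and was tested.

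The study sequenced poly(A) RNA of bovine embryos to ask what the oocyte linker histone H1FOO does in preimplantation development. The KD embryos had received H1FOO siRNAs as zygotes and the NC embryos negative control siRNAs, so all embryos had been injected at the zygote stage. Morulae were taken 5.5 days after insemination (3 KD and 3 NC libraries) and 8/16-cell embryos 4 days after insemination (2 KD and 2 NC libraries). The labels do not say how many embryos a library holds or whether the replicates came from separate cultures, so the p-values reflect variation among these libraries, which may be technical. In RNA of whole embryos, fewer cells that express a gene and less RNA per cell cannot be told apart.

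Immediate early genes are transcribed within minutes of a signal, by factors such as SRF, the ternary complex factors and CREB that are already present in the cell, and most of their mRNAs and proteins are short-lived. FOS and JUN proteins pair through leucine zippers to form the transcription factor AP-1, ATF3 is a related zipper protein induced by stress, and EGR1 and KLF6 are zinc finger transcription factors. DUSP1 is a phosphatase that switches off MAP kinases, and IER3 is a target of NF-kappaB and ERK signalling linked to cell survival. SGK1 is a kinase induced by serum and glucocorticoids that acts below PI3K on ion transport and survival, and PER1 is a repressor of the circadian clock that hormones and cAMP also induce directly; both roles are known chiefly from human and mouse cells.

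H1FOO was lower in KD libraries at both stages, at 0.0610 to 0.251 FPKM in KD against 0.294 to 2.17 FPKM in NC morulae, and at 0.0736 and 0.649 FPKM in KD against 10.8 and 50.8 FPKM in NC 8/16-cell embryos. FPKM is a fragment count scaled by gene length and by the size of the library; the read depth behind each value is unknown. Of 11 embryo markers all were above 0 in every library, with a summed level between 614 and 1473 FPKM. The MIR2887 microRNA pair was listed at 0 in every library but the KD 8/16-cell ones, where it took 27.1% and 8.06% of the summed FPKM. The columns of the stages were probably made apart and then merged, so that a difference of stage and one of processing cannot be told apart.

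All 10 genes were detected in every library, at levels from low to high among the expressed genes. DUSP1 and SGK1 were the most abundant. In KD morulae DUSP1 averaged 140.3 ± 19.0 FPKM and SGK1 132 ± 14.9 FPKM, and in NC morulae 85.1 ± 6.13 and 78.6 ± 3.76 FPKM (SD, n = 3 each). DUSP1 exceeded 92.6% to 97.8% of the 11761 tested genes, depending on the group. IER2, ATF3 and IER3 formed a middle tier, at 46.4 ± 4.55, 46.3 ± 11.5 and 42.8 ± 6.04 FPKM in KD morulae, and at 46.6 ± 6.98, 43.4 ± 3.65 and 44.2 ± 6.81 FPKM in NC morulae. In both morula groups the libraries of neighbouring genes in this tier overlapped, as did those of DUSP1 and SGK1. EGR1 followed at 19.4 ± 3.29 FPKM in KD and 20.9 ± 4.56 FPKM in NC morulae. FOS, the best known immediate early gene, was among the lowest, at 5.84 ± 0.686 FPKM in KD and 5.57 ± 0.211 FPKM in NC morulae, beside PER1, JUN and KLF6. At the 8/16-cell stage the order was led by SGK1 in KD embryos (217 FPKM) and by DUSP1 in NC embryos (224 FPKM), and KLF6 was lowest in both (2.66 FPKM in KD and 2.14 FPKM in NC).

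**Figure D1:**
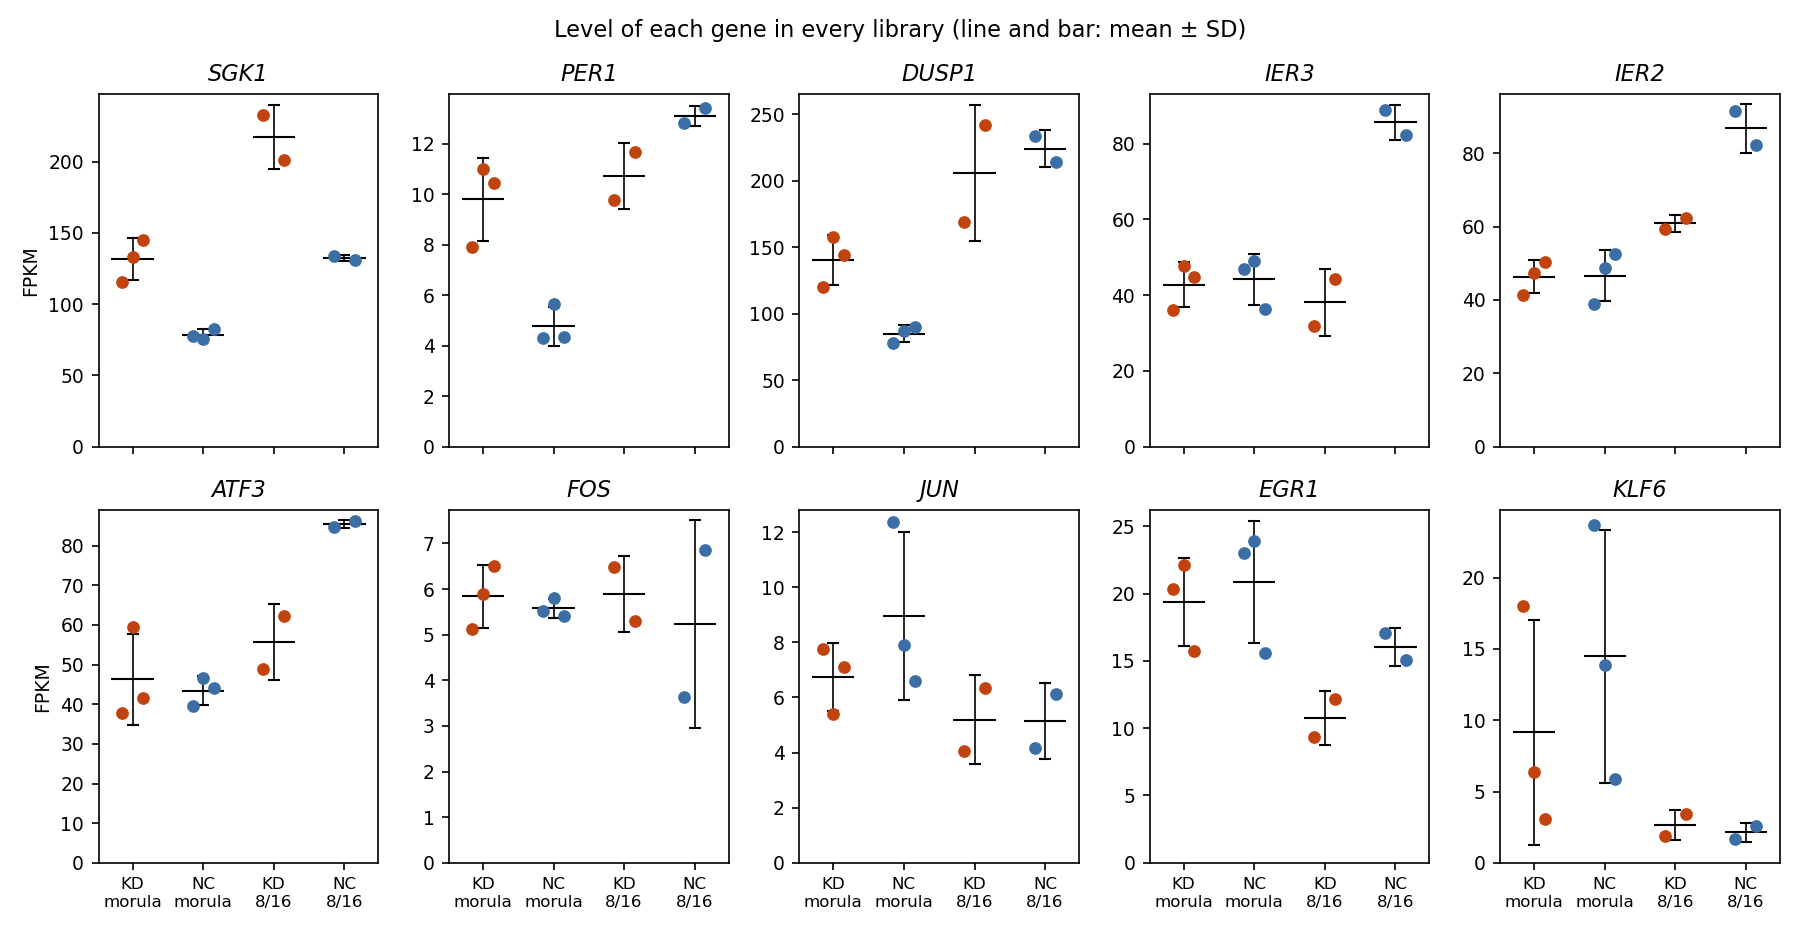
FPKM of each gene (vertical axis, linear, from 0) in every library of KD morulae, NC morulae, KD 8/16-cell and NC 8/16-cell embryos; points are libraries, lines and bars the mean ± SD. SGK1, PER1 and DUSP1 stand higher in all 3 KD than in all 3 NC morula libraries, and the KLF6 libraries of a morula group spread widely.

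The levels of 5 genes fell and those of 2 rose at the morula stage relative to the 8/16-cell stage. The limma fit of log2(FPKM + 1) over all 10 libraries called 7 of the 10 genes at an adjusted p under 0.05, where 43.5% of all tested genes were called. For falls the count was 5 of 10 against 28.2% of all genes, and for rises 2 of 10 against 15.3%. The median log2 difference of the 10 genes was -0.50, and that of all tested genes -0.13. Among all tested genes 1804 rose and 3312 fell; with quantile normalization, which moved the median of all genes to 0.00, the split was 2537 and 2606, and that of the 10 genes 3 and 5. The libraries of the stages did not overlap for 2 of the 10 genes, DUSP1 and IER2, both lower in morulae, where 27.9% of all genes did not overlap and 19.1% lay lower. Markers of cumulus and granulosa cells, somatic cells around the oocyte, moved the same way: of 15 tested 9 fell and 1 rose, with a median of -0.92. Their part in the stage differences of the 10 genes and of the other immediate early genes was not tested. Within KD embryos alone, 1 of the 10 genes was called higher and 1 lower, where 614 and 1741 of all 11761 tested genes were. Within NC embryos alone, 1 was called higher and 6 lower, where 1484 and 2142 of all tested genes were. The choice of the genes used differences between these treatments, so nothing is read from the within-treatment counts.

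SGK1 stood at 116, 133 and 145 FPKM in KD morulae and at 77.9, 75.3 and 82.7 FPKM in NC morulae. In 8/16-cell embryos its level was 233 and 201 FPKM in KD and 134 and 131 FPKM in NC libraries. The KD libraries lay above all NC libraries at each stage, and within each treatment the morula libraries lay below the 8/16-cell ones. The log2 difference of KD and NC was 0.73 (SE 0.15) in morulae and 0.71 (SE 0.18) in 8/16-cell embryos, and in same-numbered morula libraries the KD level was 1.49 to 1.77 times the NC level. Averaged over the treatments, SGK1 fell by 0.73 on the log2 scale (SE 0.12, adjusted p = 0.000881), with -0.72 in KD and -0.75 in NC embryos. SGK1 also varied little between libraries of a group: 3.53% of tested genes had a smaller residual SD (0.12 on the log2 scale, against a median of 0.27). A gene with a small SD stands out more easily, and SGK1 was chosen for standing out, so nothing is read from that rank. The same SD enters the p-value of its stage difference.

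PER1, the clock repressor, stood at 7.92, 11.0 and 10.4 FPKM in KD morulae against 4.29, 5.67 and 4.34 FPKM in NC morulae, a log2 difference of 0.90 (SE 0.18). The 8/16-cell levels were 9.79 and 11.7 FPKM in KD against 12.8 and 13.4 FPKM in NC embryos, a log2 difference of -0.27 (SE 0.22). The libraries of the treatments did not overlap at either stage, with KD above NC in morulae and below NC in 8/16-cell embryos. PER1 fell by 0.71 on the log2 scale between the stages (SE 0.14, adjusted p = 0.00280). This average joins unlike values, -0.13 (SE 0.20) in KD and -1.30 (SE 0.20) in NC embryos.

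DUSP1, the MAP kinase phosphatase, had 119.8, 157 and 144 FPKM in KD morulae and 78.2, 87.3 and 89.8 FPKM in NC morulae, and every KD library was above every NC library (log2 difference 0.71, SE 0.18). The 8/16-cell values were 169 and 242 FPKM in KD and 234 and 214 FPKM in NC embryos, which overlapped (log2 difference -0.15, SE 0.22). All 6 morula libraries lay below all 4 8/16-cell libraries, and DUSP1 fell by 0.96 on the log2 scale (SE 0.14, adjusted p = 0.000572). The value was -0.53 (SE 0.20) in KD and -1.39 (SE 0.20) in NC embryos.

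IER3, linked to cell survival, stood at 31.9 and 44.3 FPKM in KD 8/16-cell embryos against 88.9 and 82.4 FPKM in NC 8/16-cell embryos. Both KD libraries were below both NC libraries, and the log2 difference of -1.16 (SE 0.23) was larger in size than that of 98.7% of tested genes. IER3 was chosen with this difference known, so nothing is read from that rank. In morulae the values overlapped, at 36.0, 47.6 and 44.8 FPKM in KD and 47.0, 49.1 and 36.4 FPKM in NC (log2 difference -0.04, SE 0.19). The log2 difference between the stages was 0.17 (SE 0.21) in KD and -0.95 (SE 0.21) in NC embryos, and the mean of -0.39 (SE 0.15, 95% interval -0.71 to -0.06) did not pass (adjusted p = 0.0527).

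IER2, an immediate early nuclear protein, stood at 59.2 and 62.4 FPKM in KD against 91.5 and 82.1 FPKM in NC 8/16-cell embryos, with no overlap (log2 difference -0.50, SE 0.19). In morulae it stood at 41.4, 47.3 and 50.4 FPKM in KD and at 38.9, 48.7 and 52.4 FPKM in NC (log2 difference 0.00, SE 0.16). All morula libraries were below all 8/16-cell libraries, and IER2 fell by 0.64 on the log2 scale (SE 0.13, adjusted p = 0.00249). The value was -0.39 (SE 0.18) in KD and -0.89 (SE 0.18) in NC embryos.

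ATF3, the stress-induced zipper protein, stood at 48.8 and 62.4 FPKM in KD 8/16-cell embryos, both below the 84.8 and 86.2 FPKM of NC 8/16-cell embryos (log2 difference -0.62, SE 0.23). The morula libraries overlapped, at 37.9, 59.4 and 41.7 FPKM in KD and 39.4, 46.6 and 44.1 FPKM in NC (log2 difference 0.07, SE 0.19). ATF3 fell by 0.62 on the log2 scale between the stages (SE 0.15, adjusted p = 0.00696). The average joins -0.27 (SE 0.21), with overlapping libraries, in KD and -0.97 (SE 0.21) in NC embryos. When libraries were scaled to equal sums without the MIR2887 pair the difference was -0.52 and did not pass (adjusted p = 0.0578); the other alternatives gave lower adjusted p-values, down to 0.00303.

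The AP-1 genes FOS and JUN were low throughout. FOS stood at 5.13, 5.89 and 6.50 FPKM in KD and 5.51, 5.81 and 5.40 FPKM in NC morulae, and at 6.49 and 5.30 FPKM in KD and 3.63 and 6.85 FPKM in NC 8/16-cell embryos. The 4 groups overlapped, and the stage difference of 0.06 on the log2 scale (SE 0.17, 95% interval -0.31 to 0.43, adjusted p = 0.802) did not pass. JUN stood at 7.75, 5.39 and 7.09 FPKM in KD and 12.4, 7.92 and 6.58 FPKM in NC morulae, against 4.04 and 6.35 FPKM in KD and 4.17 and 6.11 FPKM in NC 8/16-cell embryos. Its stage difference of 0.50 (SE 0.20, 95% interval 0.05 to 0.95, adjusted p = 0.0674) did not pass either.

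Averaged over the treatments, the zinc finger genes EGR1 and KLF6 rose. EGR1 stood at 20.3, 22.1 and 15.7 FPKM in KD and 23.0, 23.9 and 15.6 FPKM in NC morulae, against 9.31 and 12.1 FPKM in KD and 17.0 and 15.1 FPKM in NC 8/16-cell embryos. The log2 difference was 0.57 (SE 0.16, adjusted p = 0.0170), but without KD 8/16-cell replicate 1 or NC 8/16-cell replicate 2 it was 0.48 and 0.52 and did not pass (adjusted p = 0.0695 and 0.0658, the highest of a range that began at 0.00508). At the 8/16-cell stage both KD values of EGR1 were below both NC values (log2 difference -0.55, SE 0.25), and in morulae the treatments overlapped (-0.09, SE 0.21). Within the treatments the stage difference of EGR1 was 0.79 (SE 0.23) in KD and 0.34 (SE 0.23), with overlapping libraries, in NC embryos.

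KLF6 had the largest stage difference of the 10 genes. It stood at 18.0, 6.37 and 3.05 FPKM in KD and 23.7, 13.9 and 5.90 FPKM in NC morulae, against 1.91 and 3.41 FPKM in KD and 1.67 and 2.60 FPKM in NC 8/16-cell embryos (log2 difference 1.67, SE 0.44, adjusted p = 0.0109). The average joins 1.21 (SE 0.62), with overlapping libraries, in KD and 2.13 (SE 0.62) in NC embryos. The residual SD of KLF6, 0.87 on the log2 scale, was above that of 98.1% of tested genes. Among the morula libraries the one numbered 1 was highest and the one numbered 3 lowest in both treatments, and in each same-numbered pair the KD level was 0.459 to 0.762 times the NC level.

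**Figure D2:**
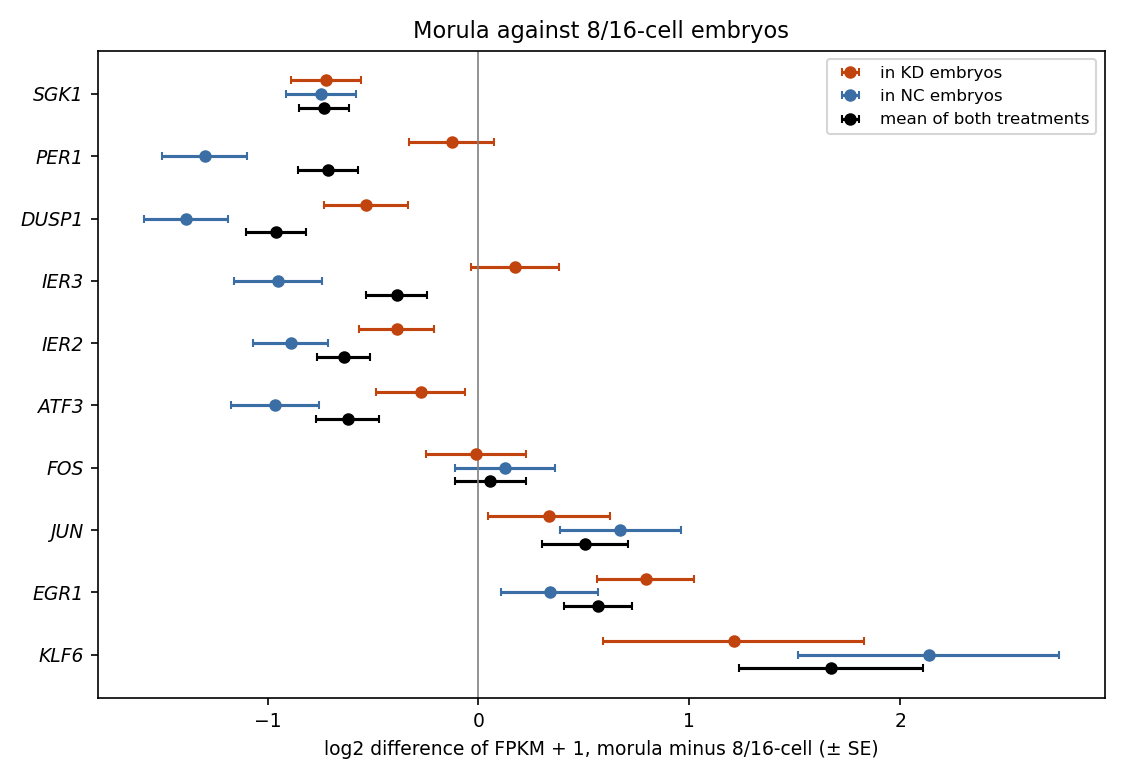
Log2 difference of FPKM + 1 between morulae and 8/16-cell embryos (horizontal axis, ± SE) for each gene, in KD embryos, in NC embryos and as the mean of both. The means of SGK1, PER1, DUSP1, IER2 and ATF3 lie below 0 and those of EGR1 and KLF6 above it, all past the threshold. For PER1, DUSP1 and IER3 the KD point lies well to the right of the NC point.

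**Figure D3:**
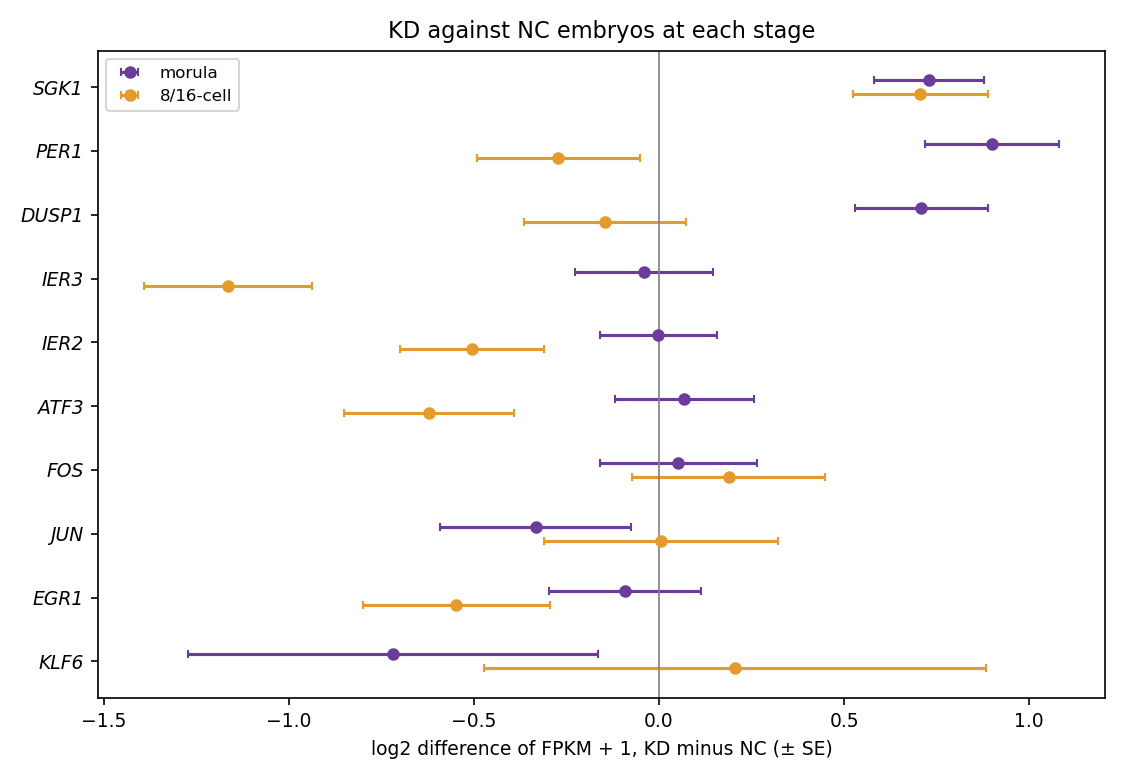
Log2 difference of FPKM + 1 between KD and NC embryos (horizontal axis, ± SE) at the morula and the 8/16-cell stage. SGK1 is positive at both stages (0.73 and 0.71), PER1 and DUSP1 are positive in morulae (0.90 and 0.71) and negative at the 8/16-cell stage (-0.27 and -0.15), and IER3, IER2, ATF3 and EGR1 are negative at the 8/16-cell stage and near 0 in morulae.

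KD and NC libraries did not overlap for 3 of the 10 genes in morulae, SGK1, PER1 and DUSP1, all higher in KD, where 23.8% of all tested genes did not overlap and 8.44% did so with KD higher. At the 8/16-cell stage they did not overlap for 6 genes, SGK1 higher in KD and PER1, IER3, IER2, ATF3 and EGR1 lower, against 33.2% of all genes, 19.3% with KD higher and 13.9% with KD lower. In limma 0 of the 10 passed at either stage, where 0.697% of all genes passed in morulae and 0.0170% in 8/16-cell embryos. At an unadjusted p under 0.05 there were 3 of the 10 in morulae, against 21.2% of all genes, and 4 in 8/16-cell embryos, against 4.37%. The interaction of stage and treatment also had 0 of 10 with 0.0170% of all genes, and 4 of 10 at an unadjusted p under 0.05 with 9.39%. With the libraries of both stages paired by replicate number, 4 of the 10 passed in morulae, 3 higher and 1 lower in KD. Of all genes 11.9% passed in that fit, 3.89% higher and 8.00% lower. Since differences of this kind were in view when the genes were chosen, nothing is read from these counts.

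**Figure D4:**
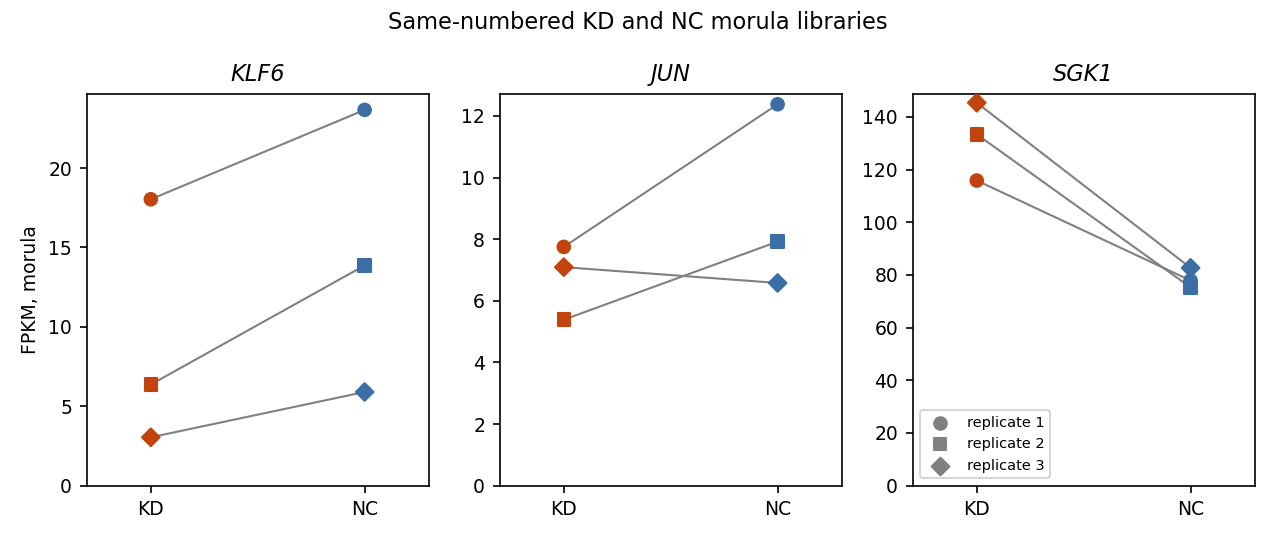
FPKM of KLF6, JUN and SGK1 (vertical axes, linear, from 0) in KD and NC morula libraries, with lines joining libraries of the same replicate number. KLF6 is ordered by replicate in both treatments and lower in KD in each pair, and SGK1 is higher in KD in each pair.

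Other values were compared between the treatments beside these genes. RN18S1, a gene of 18S ribosomal RNA, had 9053, 8553 and 11581 FPKM in KD and 2704, 2983 and 8611 FPKM in NC morulae. At the 8/16-cell stage it had 5640 and 5098 FPKM in KD and 3383 and 9367 FPKM in NC libraries. The libraries of the treatments overlapped at both stages. The 23 listed markers of cumulus and granulosa cells, which can adhere to the embryo, summed to 181 and 187 FPKM in KD and 103 and 110.1 FPKM in NC 8/16-cell embryos, and to 70.2, 74.1 and 149.7 FPKM in KD and 90.1, 78.4 and 79.1 FPKM in NC morulae. Of the 15 tested, 11 had a positive KD difference at the 8/16-cell stage and 12 in morulae, against 52.1% and 42.0% of all genes. At the 8/16-cell stage 9 of them lay wholly higher in KD and 1 wholly lower, against 19.3% and 13.9% of all genes. FSHR, a receptor of granulosa cells, was listed at 0 in every library. Of the 11 embryo markers, 1 had a positive KD difference at the 8/16-cell stage and 2 in morulae, against 52.1% and 42.0% of all genes. At the 8/16-cell stage 5 of these markers lay wholly lower in KD and 0 wholly higher, against 13.9% and 19.3% of all genes. The part of RN18S1, of cumulus and granulosa cells and of the embryo markers in the differences of KD and NC was not tested.

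Over the 10 libraries PER1 and DUSP1 were the most alike of the 45 pairs of these genes (Pearson r = 0.95 on log2(FPKM + 1)), followed by IER2 and ATF3 (r = 0.90), while IER2 and KLF6 ran in opposite directions (r = -0.82). These values share stage and treatment; for the deviations from the group means r was 0.72 for PER1 and DUSP1, 0.43 for IER2 and ATF3 and -0.85 for IER2 and KLF6. FOS and JUN, the partners in AP-1, had r = 0.17. Among 7700 other genes whose mean reached 5 FPKM, the patterns most like SGK1 were those of SMTNL2 (r = 0.97), CTNNBL1 (r = 0.96) and CALB1 (r = 0.96), and those most like PER1 were TSC22D2 (r = 0.98), FXR2 (r = 0.97) and FAM205A (r = 0.97). For IER3 they were ARHGAP31 (r = 0.92), DAXX (r = 0.85) and H1FOO itself (r = 0.83), all over 10 libraries. These 10 include the groups by whose differences SGK1, PER1 and IER3 were chosen, so that each likeness follows in part from the choice. H1FOO is also the gene knocked down, and its mean reached 5 FPKM only through the NC 8/16-cell libraries, where IER3 was also highest. It averaged 30.8 FPKM there, against 0.361 FPKM in KD 8/16-cell embryos and 0.168 and 1.17 FPKM in KD and NC morulae. Nothing is read from its likeness to IER3. The genes most like KLF6, looked up after its values were seen, were FOXJ2 (r = 0.97), RCC1 (r = 0.97) and PTK2 (r = 0.97).

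The other immediate early genes listed lay mostly lower in morulae. The 48 were listed from textbook knowledge, but with earlier results of these data known. Of these 42 were tested, and 24 of them fell and 5 rose between the stages, where 28.2% and 15.3% of all genes did. Their median log2 difference was -0.73 against -0.13 for all genes. The inhibitor of basic helix-loop-helix factors ID3 averaged 5.85 FPKM in KD and 1.77 FPKM in NC morulae, against 50.4 FPKM in KD and 59.4 FPKM in NC 8/16-cell embryos (log2 difference -3.76, SE 0.31, adjusted p = 2.99e-05). The growth regulator MYC averaged 15.3 and 5.28 FPKM in KD and NC morulae, against 38.5 and 39.8 FPKM in KD and NC 8/16-cell embryos (-2.05, SE 0.25, adjusted p = 0.000187). The growth arrest genes GADD45A (-1.89) and GADD45B (-1.05) and the kinase PLK3 (-1.75) also fell. The matrix protein CYR61, a target of SRF and YAP, rose (1.81, SE 0.25, adjusted p = 0.000379), at 18.4 and 13.5 FPKM in KD and NC morulae against 3.19 and 4.11 FPKM in KD and NC 8/16-cell embryos. EGR2, EGR3, EGR4, NR4A3, ARC and NPAS4 did not reach a mean of 1 FPKM and were not tested. In KD against NC, 0 of the 42 passed at either stage in limma. At an unadjusted p under 0.05 there were 10 in morulae and 4 in 8/16-cell embryos, against 21.2% and 4.37% of all genes. The number past the threshold in morulae was 5 with the replicate block, where 11.9% of all genes passed. It was also 5 without KD morula replicate 1. In morulae 30 had a positive difference, with a median of 0.28 against -0.08 for all genes, and at the 8/16-cell stage 20 did, with a median of -0.02 against 0.01.

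**Figure D5:**
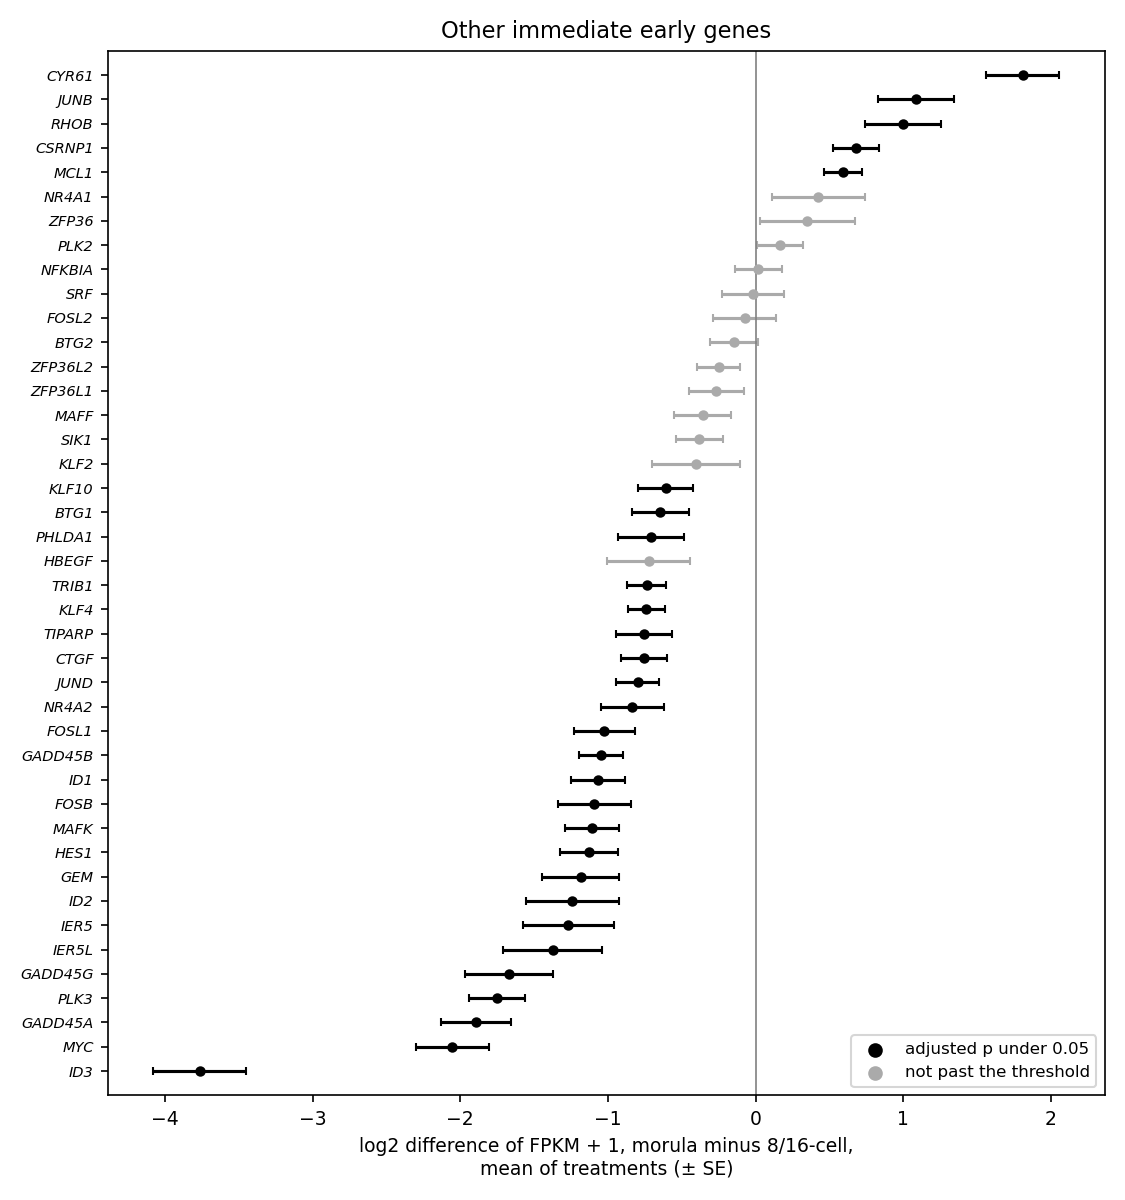
Log2 difference of FPKM + 1 between morulae and 8/16-cell embryos, mean of both treatments (horizontal axis, ± SE), for the 42 tested immediate early genes outside the 10. Black points passed at an adjusted p under 0.05: 24 lie below 0, with ID3 lowest at -3.76, and 5 above it, with CYR61 highest at 1.81.

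In the lists that follow, the counts stand beside 28.2% of all tested genes that fell and 15.3% that rose, and the medians beside -0.13. Zipper proteins listed as relatives or partners of FOS, JUN and ATF3 were called lower in 8 of 18 tested genes and higher in 1 (median -0.42). Among the falls were MAFG (-1.01), ATF1 (-0.88), ATF2 (-0.99), MAFK (-1.11), JUND (-0.80) and FOSL1 (-1.02). MAFK, JUND and FOSL1 also count among the 42 genes above. Of 21 kinases and factors upstream of immediate early genes 5 fell and 2 rose (median -0.02), neither share above that of all genes. The ERK-activated kinase RPS6KA1 (1.83) and MAPK9 (0.59) rose, while RPS6KA5 (-1.05), the ternary complex factors ELK3 (-1.18) and ELK1 (-0.43) and the ERK gene MAPK3 (-0.45) fell. SRF itself had a log2 difference of -0.02 (SE 0.21). Genes listed for negative feedback, mostly on MAP kinase signalling, fell in 6 of 15 tested and rose in 1 (median -0.02). The falls included the phosphatases DUSP7 (-1.81), DUSP10 (-1.26) and DUSP6 (-0.72), relatives of DUSP1, and the Sprouty genes SPRY1 (-0.89) and SPRY4 (-0.72). SPRED2 (1.02) was the rise. This list also holds NFKBIA and ZFP36, which count among the 42 genes above as well.

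Around PER1, 7 of 18 tested clock genes fell and 1 rose (median -0.42), among them CIART (-2.30), HLF (-1.26), the casein kinases CSNK1E (-0.98) and CSNK1D (-0.59), which phosphorylate PER proteins, PER2 (-0.88) and CLOCK (-0.63). Around SGK1, 6 of 24 tested genes of the PI3K branch fell and 5 rose (median -0.16): the transcription factor FOXO1 (-1.12), the sister kinase SGK3 (-0.75), TSC2 (-0.57) and the activating kinase PDPK1 (-0.49) fell, and NDRG2 (1.33) rose. Of 16 listed genes of the glucocorticoid response only 8 were tested, of which 3 fell and 1 rose (median -0.29): the mineralocorticoid receptor NR3C2 (-1.55), CDKN1C (-1.56) and GLUL (-0.54) fell and MT2A (1.19) rose. FKBP5 (-0.48) and KLF9 (-0.09), direct targets of the glucocorticoid receptor, did not pass. Of 16 tested genes of the integrated stress response, in which ATF3 lies below ATF4, 6 fell and 2 rose (median -0.26), with DDIT3 (-2.11), CHAC1 (-1.39), ATF4 (-0.55) and PPP1R15A (-0.51) among the falls, and DDIT4 (0.93) and EIF2AK4 (0.82) the rises. All these values are log2 differences of morulae and 8/16-cell embryos, and in KD against NC no gene of these 7 lists passed in limma at either stage, with 23 of 120 entries in morulae and 3 of 120 at the 8/16-cell stage at an unadjusted p under 0.05, against 21.2% and 4.37% of all genes.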

How the data were processed

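Poly(A) RNA of bovine embryos was measured in 10 libraries. The authors deposited FPKM values in 1 table of 39911 lines, and 0 columns were left unmatched to a sample. The submitters' processing notes name HISAT2, Trimmomatic, Cufflinks and featureCounts, and the builds bosTau9 and ARS-UCD1.2; versions and the role of each are not given in the sources used here. Strand is not stated, so antisense reads cannot be told apart. Read depth, and so counting error, is unknown.

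Symbols on several lines were left out (81 symbols, 11211 lines): the 8/16-cell columns give 1 set of values for all 81, the morula columns several for 75, hence the inference that the stages were processed apart. The remaining 28700 genes hold all 10 described here, each a symbol of the RefSeq annotation of ARS-UCD2.0, used for names only. Values were taken as log2(FPKM + 1), and 11761 genes averaging 1 FPKM or more were tested with limma (version 3.58.1, R 4.3.3), using trended moderation, 4 group means, 6 residual degrees of freedom and Benjamini-Hochberg adjustment over all tested genes at 0.05. The fit was tested on simulated data. A fold on this scale understates changes of low genes.

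The members and lists were chosen with earlier results of these data known. Named list genes are up to 6 per list by smallest p between the stages; 1 of these is not reported here. Likeness is Pearson's r among genes averaging 5 FPKM or more. Promoter motifs had been planned and were not analysed here. In morulae, libraries with the same number deviated together from their group means in all 3 pairs (r = 0.37, 0.33 and 0.31), so the numbers were taken to pair these libraries; the labels do not state a shared origin. At the 8/16-cell stage r was 0.06, and the replicate block paired those libraries as well. The block left fewer residual degrees of freedom. A total of 18 alternatives were run, covering pseudocounts, filters, scalings, a replicate block, single stages and leaving out each library.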

Additional observations from a re-analysis of the deposited data

Results flagged for a closer look

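PER1 lay on opposite sides at the stages: all KD libraries were above all NC libraries in morulae and below them at the 8/16-cell stage. The difference between these effects was 1.17 on the log2 scale (0.90 in morulae against -0.27 at the 8/16-cell stage). It was not tested as a result, because PER1 was chosen with its morula difference known. In the limma fit of the whole table PER1 was not among the 2 of 11761 genes past the threshold for this difference. The 8/16-cell side rests on 2 KD and 2 NC libraries, and the limma interval around -0.27 ran from -0.76 to 0.22. At that stage 33.2% of all tested genes did not overlap, and 13.9% lay wholly lower in KD. A change of sign between the stages was therefore not shown.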

How the results depend on the processing

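Between the stages the number of the 10 genes past the threshold, 7, was 6 with equal library sums without the MIR2887 pair, 8 with quantile normalization, and 6 to 8 when single libraries were left out. JUN passed with quantile normalization (0.62, adjusted p = 0.0278) and without NC morula replicate 3 (0.59, 0.0459), and IER3 without KD 8/16-cell replicate 1 (-0.50, 0.0321) or NC morula replicate 2 (-0.43, 0.0403). Over all alternatives the adjusted p of JUN lay between 0.0278 and 0.232, and that of IER3 between 0.0321 and 0.268. FOS, near 0, lay between -0.13 and 0.25 when single libraries were left out, and was below 0 without KD 8/16-cell replicate 2 (-0.01) and without NC 8/16-cell replicate 1 (-0.13). Within KD embryos alone, the stage difference of FOS (-0.01) reached 0.16, that of PER1 (-0.13) reached 0.08, both with quantile normalization, and that of IER3 (0.17) was -0.06 without KD 8/16-cell replicate 1. For KD against NC in morulae the count of the 10 genes past the threshold, 0, was 2 at a mean of at least 5 FPKM, 2 with quantile normalization, 4 with the replicate block, and 0 to 2 without single libraries (2 without KD morula replicate 1). It stayed at 0 at the 8/16-cell stage and for the interaction under each alternative run. The block, entered as a random effect for stage, left 7. Over the whole table the alternatives gave 3563 to 5696 genes between the stages (5116 in the fit reported), 0 to 1398 for KD against NC in morulae (82), 0 to 11 at the 8/16-cell stage (2) and 0 to 32 for the interaction (2). Of the 42 other immediate early genes 23 to 30 passed between the stages (29), 0 to 5 for KD against NC in morulae (0) and 0 to 1 at the 8/16-cell stage (0). Where a fit left 1 library in a group, that library was assumed to vary like the others. The causes of these changes were not tested.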
